A study of Mus musculus with 14 samples.

Results

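Transcripts of 10 core genes of the TGF-β pathway were followed in 14 libraries of mRNA from 4T1 tumor spheroids. The genes were the ligands *Tgfb1*, *Tgfb2* and *Tgfb3*, the receptors *Tgfbr1*, *Tgfbr2* and *Tgfbr3*, and the intracellular transducers *Smad2*, *Smad3*, *Smad4* and *Smad7*. They were taken by gene symbol, and all 10 were found among the 19525 genes of the count table and passed the low-count filter of edgeR (filterByExpr). 4T1 cells come from a mouse mammary tumor and serve as a model of triple-negative breast cancer. All spheroids spent 5 days in lung-like medium (LLM), composed after the nutrients of lung interstitial fluid. Per the methods of the study, the LLM for spheroids also held horse serum, Matrigel and rat collagen I, and every hairpin was delivered by a lentiviral pLKO vector to polyclonal cells selected with puromycin. ASP shSCR spheroids (n = 4) carried a non-targeting hairpin and received 700 µM aspartate, and NoASP shSCR spheroids (n = 3) carried the same hairpin without aspartate supplement. ASP shGRIN2D spheroids (n = 3) carried a hairpin against *Grin2d*, which encodes a subunit of the NMDA receptor, and received 700 µM aspartate. ASP shDHPS spheroids (n = 4) carried a hairpin against *Dhps*, the enzyme that starts the hypusine modification of the translation factor eIF5A, and received 700 µM aspartate. Neither knockdown was grown without aspartate, and RNA was taken from the cytosolic lysate, so nuclear transcripts were not measured.

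TGF-β ligands are secreted in a latent form, bound to their own propeptide and often to latent TGF-β binding proteins of the matrix, and are set free by integrins or proteases. Active ligand brings together the type II receptor (*Tgfbr2*) and the type I receptor (*Tgfbr1*), helped by the co-receptor betaglycan (*Tgfbr3*), and the type I receptor then phosphorylates Smad2 and Smad3. These join Smad4 and enter the nucleus, while Smad7, itself a target of the pathway, binds the receptor and limits the signal. In mammary cancer the pathway is known for growth arrest at early stages and for invasion and matrix production later. The study asked which proteins depend on hypusination for their translation, and examined TGF-β signaling as part of that program. The values below are transcript levels, which do not report ligand activation or Smad phosphorylation.

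Total counts lay between 12731123 and 23231378 per library, and counts of members ranged from 10 to 49 for *Tgfb2* to 3386 to 6323 for *Smad3*. Levels are given as CPM, the counts scaled to a common library size, with TMM factors of 0.984 to 1.02. Replicate 2 of ASP shSCR and of NoASP shSCR stood apart from the remaining libraries on the first principal component of all genes (scores of -31.8 and -24.3, against -8.59 to 30.8), and both had the highest *Tgfbr1*, *Tgfbr3*, *Smad3* and *Smad7* of their group. At the other end of that component lay ASP shDHPS replicate 1 (30.8), which had the lowest *Tgfb1*, *Smad3* and *Smad7* of all libraries. *Dhps* fell from 19.4 ± 2.28 to 6.93 ± 1.74 CPM (SD, n = 4 and 4) with its hairpin (edgeR quasi-likelihood test, adjusted p = 8.31e-06). *Grin2d* was 3.60 ± 0.423 CPM in ASP shSCR and 2.46 ± 0.590 CPM in ASP shGRIN2D (SD, n = 4 and 3), lower in all 3 libraries but not past the threshold (edgeR adjusted p = 0.516), so the hairpin against *Grin2d* was checked only weakly by its own transcript. Among genes of at least 5 CPM, the 3 prime untranslated part held the bases TCATGAA in 47.7% of 128 genes called lower in ASP shGRIN2D. The share was 8.62% of 58 genes called higher and 13.3% of all 9871 such genes. Of the 10 members, 1 held these bases, *Tgfbr3*. Hairpin sequences were not used, and no source of these bases independent of the data is given. The shares were not adjusted for the length of this part, and whether these bases relate to the changes was not tested. Changes given as with *Grin2d* silencing are differences of the ASP shGRIN2D libraries from ASP shSCR. Epithelial markers were high in all libraries, with a summed level of 5 of the 6 listed genes (*Epcam*, *Cdh1*, *Krt8*, *Krt18*, *Krt14*) between 3092 and 4143 CPM. Of the fibroblast, immune and endothelial markers, *Dcn* and *Cdh5* were at 0 or near it (at most 1 and 3 counts), *Ptprc* was at most 0.648 CPM and *Pecam1* at most 0.550 CPM. *Cd68* (5.51 to 16.0 CPM) and *Pdgfra* (22.7 to 40.7 CPM) were present, while *Pdgfrb*, *Lum*, *Col3a1*, *Adgre1*, *Cd3e* and *Kdr* were not in the count table. Of the 3 receptor genes listed for triple-negative cancer, *Pgr* was not in the count table, *Esr1* was at 2.99 to 7.13 CPM and *Erbb2* at 50.5 to 99.1 CPM.

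Per kilobase of the longest coding transcript, the mean level over all libraries was highest for *Tgfb1* at 67.4 CPM per kb, followed by *Smad3* at 48.6, *Tgfbr2* at 31.8 and *Smad4* at 27.4 CPM per kb. *Tgfb3* and *Tgfbr1* followed at 22.2 and 19.4 CPM per kb, and *Smad7* and *Smad2* at 7.53 and 6.81 CPM per kb. The co-receptor *Tgfbr3* was at 1.32 CPM per kb and *Tgfb2* was the lowest member at 0.348 CPM per kb. *Tgfb1* was thus the main ligand transcript in these spheroids by length-scaled level, above *Tgfb3* and far above *Tgfb2*. This order depends on the transcript chosen for the length, since the median coding transcript of *Smad3* has 605 bases against 5090 for the longest.

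**Figure D1:**
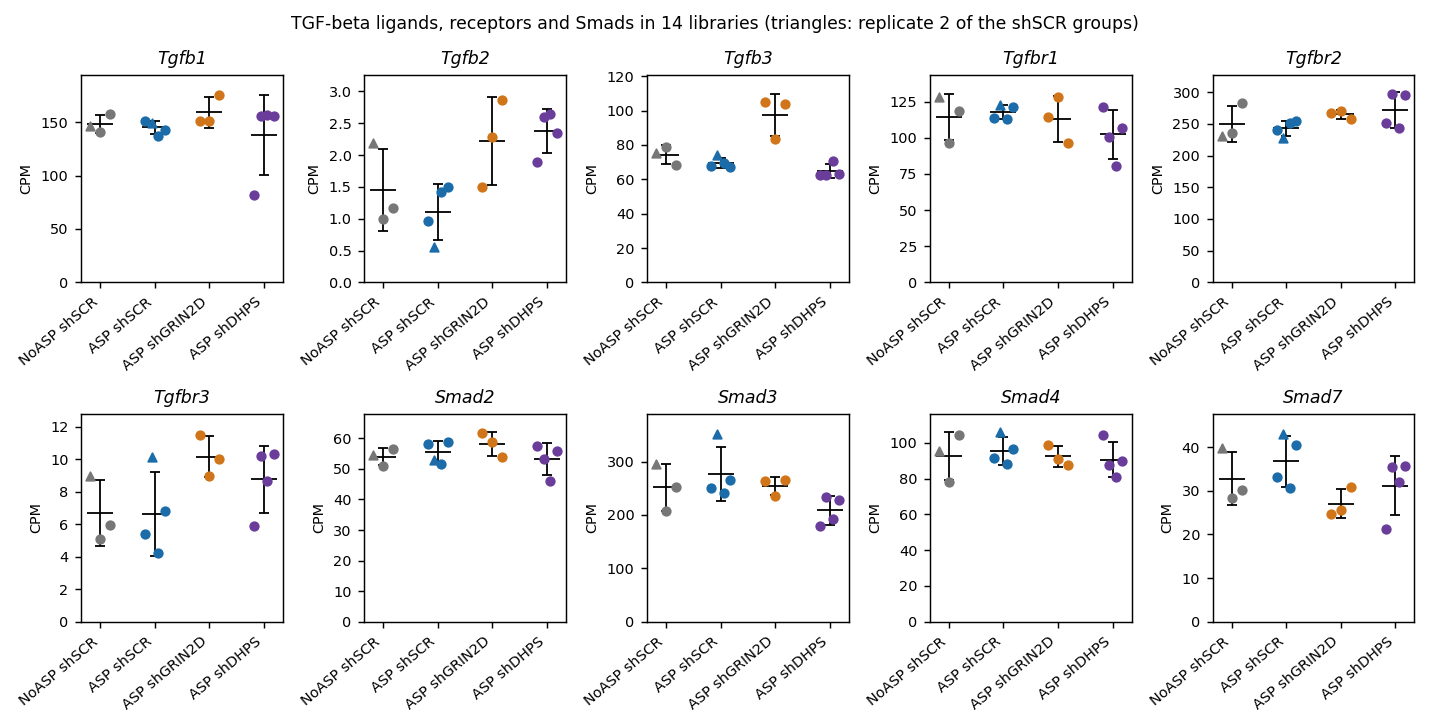
Level of each member in CPM (linear axes that start at 0) in every library of the 4 groups, with the group mean (horizontal line) and SD (whiskers), and with triangles for replicate 2 of the shSCR groups. *Tgfb3* in ASP shGRIN2D (83.3 to 105 CPM) lies above every other library, and *Tgfb1* in 1 library of ASP shDHPS lies at 81.3 CPM.

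With aspartate, no member passed the test. In ASP shSCR against NoASP shSCR, edgeR called 0 of the 10 members and 0% of 19525 genes at an adjusted p under 0.05, and DESeq2 also called 0 genes. At an unadjusted p under 0.05 there were 0 members and 2.17% of all genes. The libraries of both groups overlapped for all 10 members, against 2.71% of genes without overlap (1.19% higher and 1.52% lower). The median log2 fold change of the members was 0.0091, with 5 of 10 above 0, beside 0.0035 over the 10224 genes whose mean reached 5 CPM. For the members other than *Tgfb2* and *Tgfbr3*, the 95% intervals of the log2 difference lay between -0.35 and 0.50. Replicate numbers paired these libraries, and with the replicate number as a block edgeR called 2 genes, or 64 in the 7 shSCR libraries alone, and 0 members in either case.

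With *Grin2d* silencing, the ligand *Tgfb3* rose, from a mean of 69.6 to 97.3 CPM. It was the only member called in ASP shGRIN2D against ASP shSCR, where edgeR called 1.16% of all genes (0.425% higher and 0.732% lower). At an unadjusted p under 0.05 there were 4 members (*Tgfb3*, *Tgfb2*, *Smad7* and *Tgfbr3*), against 10.4% of genes. Libraries of both groups did not overlap for 3 members, *Tgfb2*, *Tgfb3* and *Tgfbr2*, all higher, against 12% of genes (5.64% higher and 6.4% lower). The median log2 fold change of the members was 0.096, with 6 of 10 above 0, beside 0.0059 over the 10224 genes. In bulk RNA, more transcript per cell and more cells of a kind that makes the transcript cannot be told apart.

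With *Dhps* silencing, no member passed the threshold in edgeR with group as the only term, against 4.22% of all genes (1.65% higher and 2.57% lower). DESeq2, which called 1379 of 19525 genes, and edgeR with the replicate number as a block, which called 2150, both called *Smad3* and *Tgfb2*. At an unadjusted p under 0.05 these were also the 2 members, against 19.3% of genes. Their libraries did not overlap between ASP shDHPS and ASP shSCR (*Tgfb2* higher, *Smad3* lower), against 11.1% of genes (5.25% higher and 5.8% lower). The median log2 fold change of the members was -0.075, with 3 of 10 above 0, beside -0.0038 over the 10224 genes. Both knockdowns were set against the same ASP shSCR libraries, so their values are given side by side and the difference between them was tested directly. In ASP shDHPS against ASP shGRIN2D, edgeR called 1 member, *Tgfb3*, lower with *Dhps* silencing, against 2.82% of all genes (1.2% higher and 1.62% lower). Here *Tgfb3* and *Smad3* did not overlap between groups, both lower, against 15.1% of genes (7.61% higher and 7.47% lower), and the median of the members was -0.14 beside 0.0025 over the 10224 genes.

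**Figure D2:**
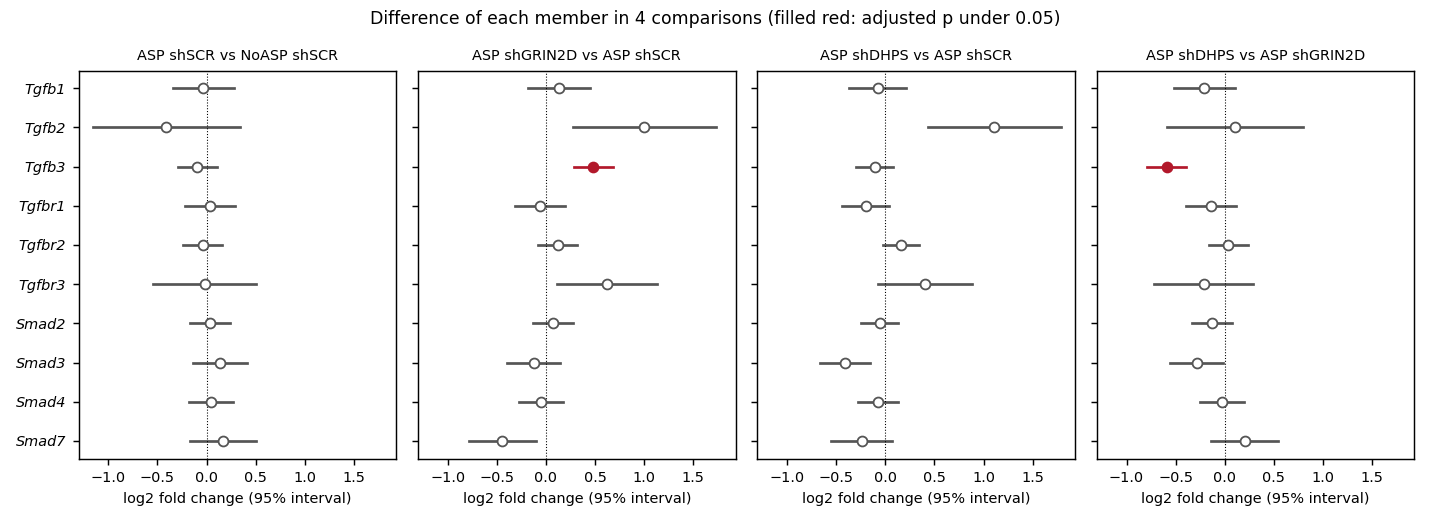
Log2 fold change of each member (horizontal axis, points) with its 95% interval (lines) in the 4 comparisons, filled red where the edgeR adjusted p was under 0.05. Only *Tgfb3* is filled, at 0.48 with *Grin2d* silencing and at -0.59 between both knockdowns.

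*Tgfb3* encodes TGF-β3, a ligand known for palate fusion and for its role in the involuting mammary gland. It was at 67.9, 73.9, 69.3 and 67.3 CPM in ASP shSCR replicates 1 to 4 and at 75.5, 79.0 and 68.2 CPM in NoASP shSCR replicates 2 to 4. In ASP shGRIN2D replicates 1 to 3 it was at 105, 83.3 and 104 CPM, and in ASP shDHPS replicates 1 to 4 at 62.5, 62.4, 70.6 and 62.9 CPM. Every ASP shGRIN2D library was above every library of the other groups, replicate 2 by the least. The other groups overlapped with their neighbors in level.

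The log2 fold change of *Tgfb3* in ASP shGRIN2D against ASP shSCR was 0.48 with a standard error of 0.096 (95% interval 0.28 to 0.68, edgeR adjusted p = 0.0101). Leaving out ASP shGRIN2D replicate 1 or 3 kept the direction (0.43 in both cases) but ended the call (edgeR adjusted p = 0.107 and 0.105). In ASP shDHPS against ASP shSCR the log2 fold change was -0.11 (standard error 0.090, edgeR adjusted p = 0.547). Between both knockdowns it was -0.59 (standard error 0.096, 95% interval -0.79 to -0.39, edgeR adjusted p = 0.000921), lower in 4 of 4 ASP shDHPS libraries, and this call was made under all 14 alternatives (adjusted p of 1.61e-07 to 0.0168). Summed epithelial markers moved in the same samples, from 4037 to 4125 CPM in ASP shSCR to 3092 to 3331 CPM in ASP shGRIN2D and 3180 to 3721 CPM in ASP shDHPS, with *Krt18* called lower in the former and *Epcam* and *Krt14* in the latter. The sum is mostly *Krt8* and *Krt18*, and not all 5 genes were lower, since the means of *Krt14* were 83.4 and 86.1 CPM in ASP shSCR and ASP shGRIN2D and those of *Cdh1* 442 and 453 CPM in ASP shSCR and ASP shDHPS. The mean of *Cd68* was 9.45 CPM in ASP shSCR, 8.96 CPM in ASP shGRIN2D and 13.8 CPM in ASP shDHPS, not called between both knockdowns (edgeR adjusted p = 0.109), and that of *Pdgfra* was 33.1, 27.5 and 26.6 CPM. The part of these markers in the result was not tested, while *Dcn* and *Cdh5* were at or near 0 in all groups.

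*Tgfb2* encodes TGF-β2, a ligand that needs betaglycan for efficient receptor binding. Its counts were low, with 22, 10, 29 and 19 counts in ASP shSCR replicates 1 to 4 and 41, 19 and 21 counts in NoASP shSCR replicates 2 to 4. These corresponded to 0.962, 0.557, 1.42 and 1.49 CPM in ASP shSCR and to 2.19, 1.00 and 1.17 CPM in NoASP shSCR. Within the controls, the library with the lowest level (ASP shSCR replicate 2) and the one with the highest (NoASP shSCR replicate 2) both belonged to the pair that stood apart on the first principal component. In ASP shGRIN2D replicates 1 to 3 it was at 1.49, 2.29 and 2.87 CPM, and in ASP shDHPS replicates 1 to 4 at 1.89, 2.598, 2.65 and 2.35 CPM. All libraries of both knockdowns were above all ASP shSCR libraries, by a very small margin for ASP shGRIN2D replicate 1, and 5 of the 7 were also above NoASP shSCR replicate 2.

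The log2 fold change of *Tgfb2* was 1.00 with *Grin2d* silencing (standard error 0.35, 95% interval 0.28 to 1.73) and did not pass the threshold (edgeR adjusted p = 0.239). With *Dhps* silencing it was 1.11 (standard error 0.33, 95% interval 0.43 to 1.78, edgeR adjusted p = 0.0561). DESeq2 put the latter past the threshold (adjusted p = 0.0243), as did edgeR without ASP shSCR replicate 3 (adjusted p = 0.0498). Between both knockdowns the log2 difference was 0.11 with a 95% interval of -0.59 to 0.80.

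Promoter sequence of *Tgfb2* is shown because the study examined CREB in aspartate-treated spheroids, and the CRE is the known binding site of CREB. The reference table (RefSeq, GRCm38.p6, 250 bases before to 50 after the start) held 6 promoters of 5 members, *Tgfb1*, *Tgfb2*, *Tgfbr1*, *Tgfbr2* and *Smad3*. Capitals mark the letters found, searched on both strands. The first line is chr1:186706044-186706073 on the minus strand with the 5 bases of a CRE core 72 bases before the start, and the second is chr1:186706176-186706205 on the minus strand with a Smad-binding element 204 bases before the start. The third is chr4:47386001-47386030 on the plus strand, 203 bases before the start of *Tgfbr1*.
Tgfb2, CRE core: gtaatcctagcgCGTCActttgttgaaggc
Tgfb2, Smad element: ccttggtgatcaCAGACAgtgactactgca
Tgfbr1, Smad element: tttcgaactcagCAGACAgccccacggtcc
The CRE core (TGACG or CGTCA) was in 1 of the 6 member promoters and in 20.8% of 32851 promoters. The Smad element (CAGACA or TGTCTG) was in 2 of the 6 and in 21% of all. The full CRE (TGACGTCA, 1.79% of all promoters), the palindromic Smad box (GTCTAGAC, 0.213%) and the AP-1 site (TGACTCA or TGAGTCA, 5.2%) were in none of the 6 windows. The 5 letters of the CRE core are also part of the full CRE.

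*Tgfb1* encodes TGF-β1, the ligand most studied in carcinoma. It was at 151, 149, 137 and 143 CPM in ASP shSCR replicates 1 to 4, at 147, 141 and 158 CPM in NoASP shSCR replicates 2 to 4 and at 151, 151 and 175 CPM in ASP shGRIN2D replicates 1 to 3. In ASP shDHPS it was at 81.3 CPM in replicate 1 and at 156, 157 and 156 CPM in replicates 2 to 4. Replicate 1 of ASP shDHPS was the lowest of all libraries, and the other libraries of that group were above all ASP shSCR libraries. The log2 fold change with *Dhps* silencing was -0.076 with all libraries and 0.11 without that library (edgeR adjusted p = 0.821 and 0.482). With *Grin2d* silencing it was 0.13 (95% interval -0.18 to 0.45) and with aspartate -0.033 (95% interval -0.35 to 0.28), neither called.

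The counts of the ligands were checked for sequence that the transcripts share, since such reads could be counted for either gene. Among coding transcripts of GENCODE M21, the longest run shared by *Tgfb1* and *Tgfb3* and by *Tgfb2* and *Tgfb3* had 15 bases, far less than a read, as shown here with the shared bases in capitals.
Tgfb1 and Tgfb3: CCCAAGGTGGAGCAG
Tgfb2 and Tgfb3: GCTCACCAGCCCCCC
Receptors shared runs of 13 to 15 bases and Smads of 12 to 23 bases, the longest between *Smad2* and *Smad3*.

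*Tgfbr2*, the ligand-binding kinase, was the steadiest receptor. It lay between 228 and 296 CPM in all libraries, at 240, 228, 252 and 254 CPM in ASP shSCR replicates 1 to 4 and at 266, 271 and 257 CPM in ASP shGRIN2D replicates 1 to 3. The ASP shGRIN2D libraries were all above the ASP shSCR libraries, but by little, with a log2 fold change of 0.12 (95% interval -0.076 to 0.32, edgeR adjusted p = 0.690). With *Dhps* silencing the log2 fold change was 0.16 (95% interval -0.027 to 0.34, edgeR adjusted p = 0.342).

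*Tgfbr1*, the kinase that phosphorylates Smad2 and Smad3, lay between 80.8 and 128 CPM. The group means were 118 ± 4.97 CPM in ASP shSCR (SD, n = 4), 115 ± 16.1 CPM in NoASP shSCR (SD, n = 3), 113 ± 15.9 CPM in ASP shGRIN2D (SD, n = 3) and 102 ± 16.8 CPM in ASP shDHPS (SD, n = 4). All groups overlapped. With *Dhps* silencing, 3 of 4 libraries were below all ASP shSCR libraries and the log2 fold change was -0.20 (95% interval -0.44 to 0.035, edgeR adjusted p = 0.344).

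*Tgfbr3* encodes betaglycan, which presents ligand, TGF-β2 above all, to the signaling receptors. It was at 5.38, 10.1, 4.21 and 6.83 CPM in ASP shSCR replicates 1 to 4 and at 8.99, 5.12 and 5.95 CPM in NoASP shSCR replicates 2 to 4. In ASP shGRIN2D replicates 1 to 3 it was at 11.5, 8.98 and 9.998 CPM, and in ASP shDHPS replicates 1 to 4 at 5.88, 10.2, 8.70 and 10.3 CPM. The ASP shGRIN2D libraries exceeded 3 of the 4 ASP shSCR libraries, and ASP shSCR replicate 2 lay among them. The log2 fold change with *Grin2d* silencing was 0.62 (standard error 0.25, 95% interval 0.11 to 1.13, edgeR adjusted p = 0.337). Without ASP shSCR replicate 2 it was 0.91 and past the threshold (edgeR adjusted p = 0.0478). With *Dhps* silencing it was 0.41 (95% interval -0.074 to 0.89, edgeR adjusted p = 0.347).

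*Smad3* encodes the transducer that binds DNA at TGF-β target genes. It was at 251, 352, 241 and 266 CPM in ASP shSCR replicates 1 to 4 and at 295, 208 and 253 CPM in NoASP shSCR replicates 2 to 4. In ASP shGRIN2D replicates 1 to 3 it was at 263, 235 and 266 CPM, and in ASP shDHPS replicates 1 to 4 at 180, 234, 193 and 228 CPM. All ASP shDHPS libraries were below all ASP shSCR and all ASP shGRIN2D libraries, the closest being 234 against 235 CPM. Replicates 1 and 3 of ASP shDHPS were also below NoASP shSCR replicate 3, and replicates 2 and 4 were above it.

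The log2 fold change of *Smad3* with *Dhps* silencing was -0.41 with a standard error of 0.12 (95% interval -0.66 to -0.16) and did not pass the threshold in edgeR (adjusted p = 0.0577). DESeq2 put it past the threshold (adjusted p = 0.0236), as did edgeR without ASP shSCR replicate 3 (adjusted p = 0.0381) or without ASP shDHPS replicate 4 (adjusted p = 0.0491). Without both replicate 2 libraries of shSCR it was -0.27 (edgeR adjusted p = 0.178). With *Grin2d* silencing it was -0.12 (95% interval -0.40 to 0.15), and between both knockdowns -0.29 (95% interval -0.56 to -0.016, edgeR adjusted p = 0.306).

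*Smad2*, the partner of Smad3, lay between 46.0 and 61.9 CPM, and *Smad4*, their common partner, between 78.2 and 106 CPM. Neither was called in any of the 4 comparisons, and the groups compared overlapped in each. For *Smad2* the log2 fold change was 0.037 with aspartate, 0.070 with *Grin2d* silencing and -0.059 with *Dhps* silencing, with 95% intervals between -0.25 and 0.27. For *Smad4* it was 0.042, -0.047 and -0.075, with 95% intervals between -0.28 and 0.26.

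*Smad7* encodes the inhibitory Smad, whose transcription is itself raised by TGF-β. It was at 33.2, 43.0, 30.6 and 40.4 CPM in ASP shSCR replicates 1 to 4 and at 39.7, 28.3 and 30.2 CPM in NoASP shSCR replicates 2 to 4. In ASP shGRIN2D replicates 1 to 3 it was at 24.7, 25.6 and 30.9 CPM, and in ASP shDHPS replicates 1 to 4 at 21.3, 35.5, 32.0 and 35.7 CPM. In ASP shGRIN2D, 2 of 3 libraries were below all ASP shSCR libraries and replicate 3 lay just above the lowest of them. The log2 fold change with *Grin2d* silencing was -0.44 (standard error 0.16, 95% interval -0.78 to -0.10, edgeR adjusted p = 0.286). With *Dhps* silencing it was -0.24 (95% interval -0.55 to 0.071, edgeR adjusted p = 0.392), and ASP shDHPS replicate 1 was the lowest of all libraries.

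**Figure D3:**
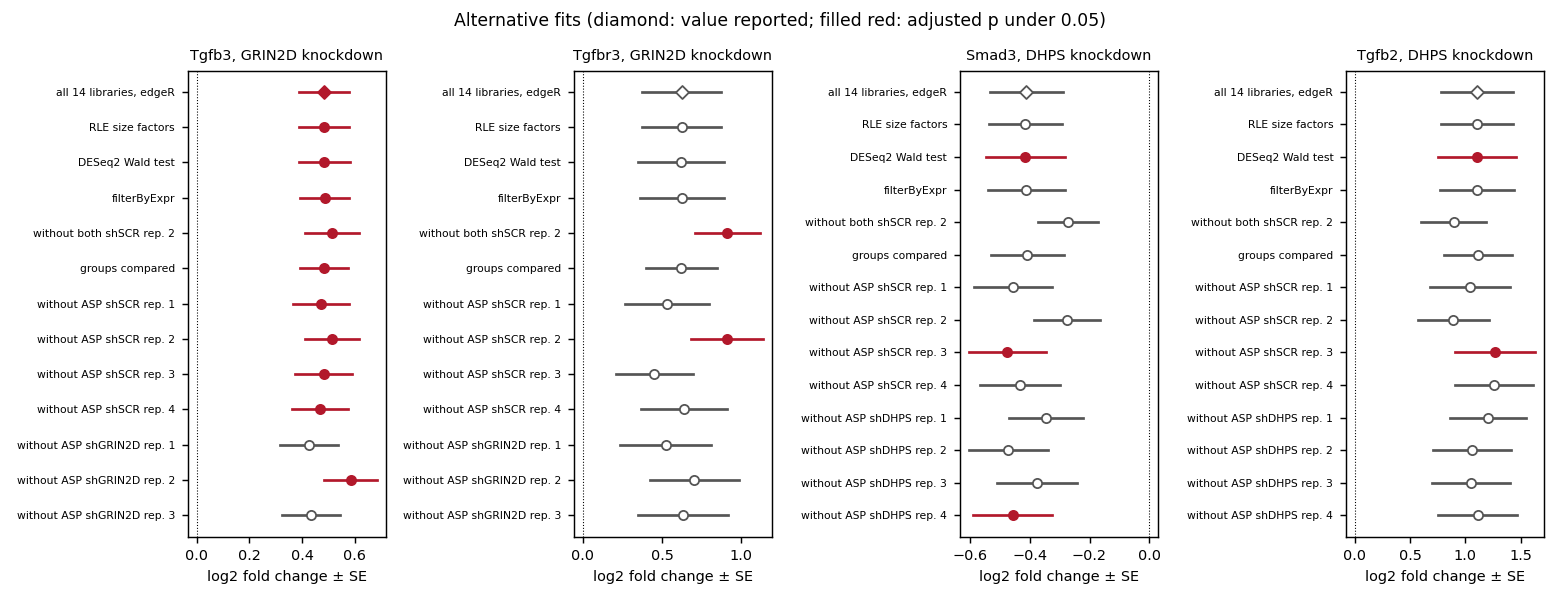
Log2 fold change (points) and standard error (lines) of *Tgfb3*, *Tgfbr3*, *Smad3* and *Tgfb2* under the reported fit (diamond) and under other normalizations, tools and sets of libraries, filled red where the adjusted p was under 0.05. All values of a gene lie on 1 side of 0 (0.43 to 0.58 for *Tgfb3*, for example), while the call depends on the libraries kept. For *Smad3* and *Tgfb2* it depends on the tool as well. Fits with the replicate block are not drawn.

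By group mean, *Tgfb3* ran from ASP shGRIN2D over NoASP shSCR and ASP shSCR to ASP shDHPS, and only its first and second groups were free of overlap. For the other 9 members, all neighbors in the order of group means overlapped. ASP shDHPS had the lowest mean for *Tgfb1*, *Tgfb3*, *Tgfbr1*, *Smad2*, *Smad3* and *Smad4*, and the highest for *Tgfb2* and *Tgfbr2*. ASP shGRIN2D had the lowest mean for *Smad7*.

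The genes whose log2 CPM followed *Tgfb3* most closely over the 14 libraries were *Gnao1* (Pearson r = 0.928), *Ssbp2* (r = 0.904) and *Chdh* (r = 0.900), out of 9861 genes. The libraries fall into groups that differ in *Tgfb3*, so a common order of groups alone can give high r values. No r within groups was computed. *Gnao1* encodes an alpha subunit of a G protein that is abundant in neurons, *Ssbp2* a single-stranded DNA binding protein and *Chdh* choline dehydrogenase of the mitochondrion. *Chdh* rose from 10.3 to 23.7 CPM in ASP shGRIN2D (log2 fold change 1.20, edgeR adjusted p = 0.000462) and *Gnao1* from 7.26 to 12.3 CPM (0.76, edgeR adjusted p = 0.00558), whereas *Ssbp2* was at 10.2 and 14.4 CPM and not past the threshold (0.50, edgeR adjusted p = 0.0950).

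**Figure D4:**
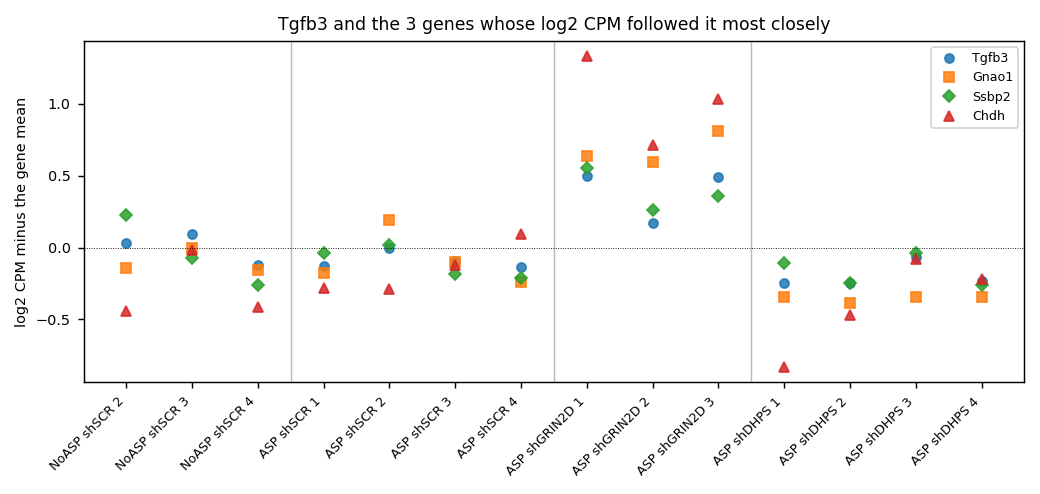
Log2 CPM minus the gene's mean (vertical axis) for *Tgfb3*, *Gnao1*, *Ssbp2* and *Chdh* in each of the 14 libraries (horizontal axis, groups separated by vertical lines). All 4 genes are above their mean in the 3 ASP shGRIN2D libraries and below it in the 4 ASP shDHPS libraries.

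Further genes of the pathway were examined in lists by role. In the BMP and activin branch, which signals through related receptors and Smads, 18 of 22 genes were in the table, and *Inhba*, the subunit of activin A, fell in both knockdowns. It was at 40.2 ± 8.66 CPM in ASP shSCR (SD, n = 4), 22.4 ± 1.399 CPM in ASP shGRIN2D (SD, n = 3) and 23.7 ± 1.57 CPM in ASP shDHPS (SD, n = 4). The log2 fold changes were -0.85 (edgeR adjusted p = 0.00747) and -0.76 (edgeR adjusted p = 0.00473), and leaving out ASP shGRIN2D replicate 1 or 3 ended the former call (edgeR adjusted p = 0.0681 and 0.0562). *Acvr2b*, an activin receptor, was called lower with *Dhps* silencing (-0.61, edgeR adjusted p = 0.0409), a call that among fits without 1 library was made only without ASP shSCR replicate 3 or ASP shDHPS replicate 2. The counts were thus 0 higher and 1 lower with *Grin2d* silencing and 0 higher and 2 lower with *Dhps* silencing, with medians of 0.030 and -0.11. Beside these and the counts of the next lists stand the shares of all genes, 0.425% higher and 0.732% lower with *Grin2d* silencing and 1.65% higher and 2.57% lower with *Dhps* silencing, and nothing particular to a list is read from counts this small.

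Among Smad regulators and cofactors, 21 of 22 genes were in the table, and 5 fell and 0 rose with *Dhps* silencing (median -0.16, against 2.57% of all genes lower), while 1 fell and 0 rose with *Grin2d* silencing (median -0.023, against 0.732% lower). *Pmepa1*, a target of TGF-β whose product restrains Smad activation, fell in both knockdowns. It was at 152 ± 17.0 CPM in ASP shSCR (SD, n = 4), 108 ± 6.47 CPM in ASP shGRIN2D (SD, n = 3) and 95.1 ± 9.05 CPM in ASP shDHPS (SD, n = 4). The call with *Dhps* silencing (-0.68, edgeR adjusted p = 0.00140) was made under all alternatives. The call with *Grin2d* silencing (-0.50, edgeR adjusted p = 0.0459) was lost when any 1 library other than ASP shSCR replicate 3 was left out (edgeR adjusted p of 0.0926 to 0.267). *Usp11*, a deubiquitinase of the type I receptor, fell from 13.1 ± 3.05 to 5.80 ± 0.720 CPM with *Dhps* silencing (SD, n = 4 and 4, log2 fold change -1.17, edgeR adjusted p = 0.000481). *Wwp1*, a ubiquitin ligase (-0.49, edgeR adjusted p = 0.00714), and *Tgif2*, a Smad corepressor (-0.61, edgeR adjusted p = 0.00650), fell as well. *Ep300*, a histone acetyltransferase and Smad coactivator, was at the threshold (-0.40, edgeR adjusted p = 0.04995) and passed among fits without 1 library only without ASP shSCR replicate 1 or ASP shDHPS replicate 4.

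Of the genes for latency and activation, 16 of 19 were in the table. With *Grin2d* silencing 1 was higher and 1 lower (median 0.0019), against 0.425% and 0.732% of all genes. With *Dhps* silencing 0 were higher and 2 lower (median -0.27), against 1.65% and 2.57% of all genes. *Mmp9*, a protease able to release latent TGF-β, was at 70.8 ± 26.1 CPM in ASP shSCR (SD, n = 4), 31.1 ± 4.98 CPM in ASP shGRIN2D (SD, n = 3) and 24.9 ± 3.18 CPM in ASP shDHPS (SD, n = 4). *Mmp9* fell in both (-1.19 and -1.51, edgeR adjusted p = 0.00300 and 9.13e-05). Its ASP shSCR libraries ranged from 55.9 to 110 CPM. With 1 library left out, the value with *Grin2d* silencing lay between -1.29 and -0.90. That call was kept each time, narrowly in the weakest case (edgeR adjusted p up to 0.0499). *Itgb3*, a subunit of an integrin that binds latent TGF-β, moved in opposite directions, at 21.1 ± 3.75 CPM in ASP shSCR (SD, n = 4), 34.3 ± 5.85 CPM in ASP shGRIN2D (SD, n = 3) and 9.08 ± 1.42 CPM in ASP shDHPS (SD, n = 4). Its log2 fold changes were 0.70 (edgeR adjusted p = 0.0190) and -1.22 (edgeR adjusted p = 6.40e-05), and -1.92 between both knockdowns (edgeR adjusted p = 4.89e-07). The rise was not past the threshold without ASP shSCR replicate 4, ASP shGRIN2D replicate 1 or ASP shGRIN2D replicate 2 (edgeR adjusted p = 0.0759, 0.207 and 0.0688).

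**Figure D5:**
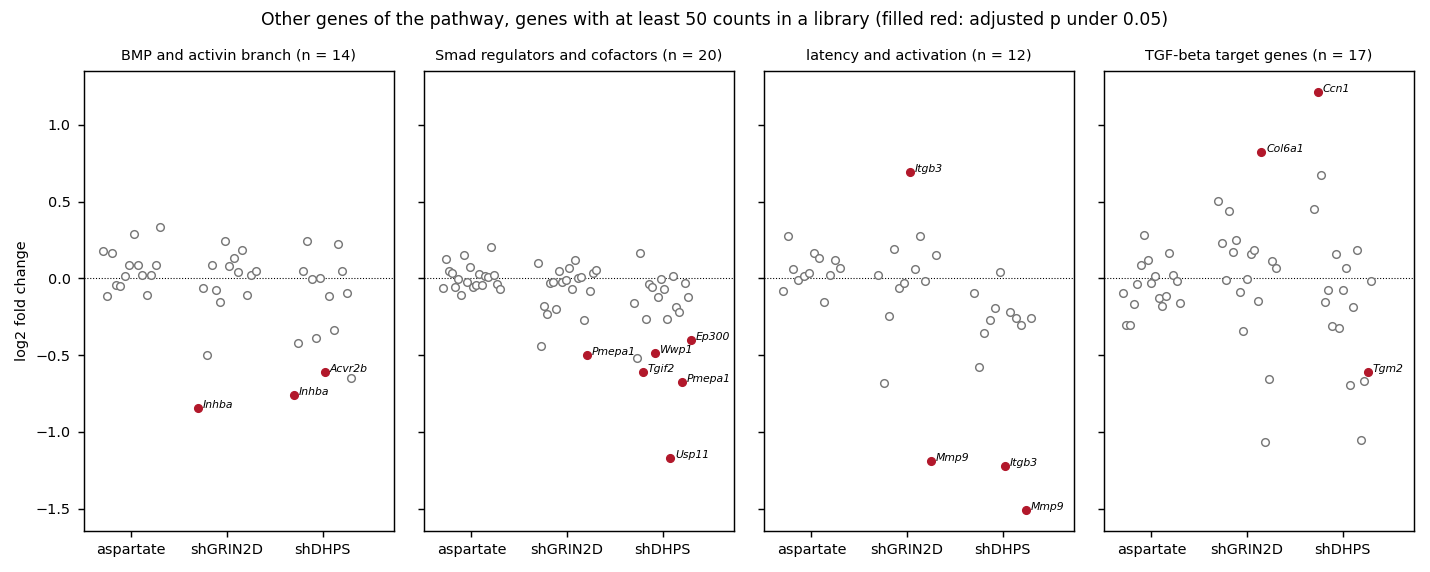
Log2 fold change (vertical axis) of genes of the 4 pathway lists with at least 50 counts in a library (circles, with the number plotted above each panel) with aspartate and with each knockdown against ASP shSCR, filled red and named where the edgeR adjusted p was under 0.05. No gene is filled with aspartate, and most filled circles with *Dhps* silencing lie below 0.

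Of the target genes of TGF-β, 19 of 20 were in the table. With *Grin2d* silencing 1 was higher and 0 lower (median 0.11), against 0.425% and 0.732% of all genes. With *Dhps* silencing 1 was higher and 1 lower (median -0.078), against 1.65% and 2.57% of all genes. DESeq2 called 5 of the target genes with *Dhps* silencing, 3 of them higher, while it called 1379 of all 19525 genes. *Col6a1*, a chain of collagen VI, rose from 46.6 ± 1.67 to 82.4 ± 4.64 CPM with *Grin2d* silencing (SD, n = 4 and 3, log2 fold change 0.82, edgeR adjusted p = 0.00276), under all 14 alternatives. *Ccn1*, a matricellular protein, rose from 33.0 ± 4.50 to 76.7 ± 8.48 CPM with *Dhps* silencing (SD, n = 4 and 4, log2 fold change 1.22, edgeR adjusted p = 0.000124). *Tgm2*, a transglutaminase that crosslinks matrix, fell from 126 ± 21.1 to 82.8 ± 10.5 CPM (SD, n = 4 and 4, log2 fold change -0.61, edgeR adjusted p = 0.00436). With aspartate, 0 genes of the 4 lists were called by edgeR or DESeq2 and 0 had an unadjusted p under 0.05 in edgeR without a block, whereas with the replicate block in the 7 shSCR libraries alone 1 gene, *Ltbp2* of the latency and activation list, was called (higher, named after its values were seen). In the fit without a block the medians of the lists lay between -0.036 and 0.048.

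Between both knockdowns, 1 gene was higher and 1 lower in the BMP and activin branch, and 1 and 3 among Smad regulators and cofactors. For latency and activation the counts were 0 and 2, and for target genes 1 and 4. The medians of the lists were -0.18, -0.14, -0.28 and -0.074, and the shares of all genes were 1.2% higher and 1.62% lower. Of the genes called, *Usp11*, *Itgb3*, *Tgm2*, *Id2* (an inhibitor of differentiation) and *Ccn1* were called under all 14 alternatives. Their log2 differences were -1.29, -1.92, -0.72, -0.56 and 0.99. *Col6a1* was lower in ASP shDHPS than in ASP shGRIN2D (-0.64, edgeR adjusted p = 0.0133), a call that ended when ASP shGRIN2D replicate 2 or 3 was left out (edgeR adjusted p = 0.0656 and 0.0616).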

How the data were processed

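The data were mRNA libraries of 14 spheroid samples, grouped by their sample labels. The authors trimmed reads with Trim Galore 0.6.6, aligned them to GRCm39 with STAR 2.6.1, quantified genes with Salmon 1.4.0, rounded the estimates and deposited them as counts for 19525 genes, leaving out genes not expressed in at least 2 replicates of a condition. The authors also deposited log2 fold changes, p-values, ranking scores and enrichment scores from their own tests of aspartate, which were not used. The labels do not say what a replicate number stands for. Per the methods, pellets were independent.

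Counts were tested with edgeR 4.0.16 in R 4.3.3 (TMM, quasi-likelihood F test, all 14 libraries, group as the only term, two-sided), with Benjamini-Hochberg adjustment over 19525 genes and a threshold of 0.05. Standard errors are the absolute log2 fold change over the square root of F. The fit was tested on simulated data with known changes in genes of at least 5 CPM. Of 100 genes with a log2 change of 0.5 in either direction, 60% were called in the *Grin2d* comparison and 58% in the *Dhps* comparison. At a change of 1 the shares were 99% and 98%. Changes near 0.5 can thus be missed. Alternatives were DESeq2 1.42.0, RLE size factors, filterByExpr (13421 genes), only the groups compared, a replicate block, leaving out each library in turn and leaving out both replicate 2 libraries of shSCR. The block with only the groups compared was added after seeing the data.

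The members, lists and alternatives were chosen with earlier results of these data known. Named genes were all members, *Grin2d*, *Dhps* and the 3 genes with the highest r to a called member. Genes of the 4 pathway lists were named where called against ASP shSCR (up to 5 by p for each list and comparison). Between both knockdowns, only the list genes called under all 14 alternatives and *Col6a1* were given with values, and the others called there are in the counts only. The values of 1 gene of the lists are not reported here. Replicate numbers were taken to pair libraries where the deviations from the group means correlated over 0.1 in every pair across 10224 genes, which held for aspartate (r = 0.514, 0.287 and 0.203) and for no other comparison. No libraries looked like duplicates, as replicate pairs differed by 7.69 to 41.8 times the sampling noise (chi-square per degree of freedom, 18 pairs). Promoters came from RefSeq (GRCm38.p6), and transcripts from GENCODE M21, an earlier build than that of the counts, so no coordinates of counted genes are given. *Tgfb3*, *Tgfbr3*, *Smad2*, *Smad4* and *Smad7* promoters and list genes outside the table were not analysed here.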

Additional observations from a re-analysis of the deposited data

Results flagged for a closer look

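In 20 groups of 4 libraries (10 members in ASP shSCR and in ASP shDHPS), 2 had a library far from the others by Dixon's test. *Tgfb1* was at 81.3 CPM in ASP shDHPS replicate 1, and the other libraries of the group were between 156 and 157 CPM. That library also had the highest score of all on the first principal component (30.8). *Tgfb3* was at 70.6 CPM in ASP shDHPS replicate 3, and the other libraries were between 62.4 and 62.9 CPM. Chance alone gives such a library in about 1 in 20 groups.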

How the results depend on the processing

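The call of *Tgfb3* with *Grin2d* silencing was made under 12 of 14 alternatives (log2 fold change 0.43 to 0.58), and its call between both knockdowns under all 14. *Tgfbr3* with *Grin2d* silencing passed under 3 of 14, and *Smad3* and *Tgfb2* with *Dhps* silencing under 5 and 4 of 15. With few counts, *Tgfb2* was measured least precisely. The causes of differences between fits were not tested.

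DESeq2 called 442, 1379 and 933 genes with *Grin2d* silencing, with *Dhps* silencing and between both knockdowns, and 2 members with *Dhps* silencing. Only the groups compared gave 374 genes with *Grin2d* silencing. Without both replicate 2 libraries of shSCR there were 849 genes between both knockdowns and 2 members with *Grin2d* silencing, and the aspartate value of *Tgfb2* was 0.23 and the *Grin2d* values of *Smad3* and *Smad4* were 0.0098 and 0.0070.

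Leaving out 1 library gave 0 to 1 genes with aspartate, 86 to 208 with *Grin2d* silencing, 412 to 894 with *Dhps* silencing and 209 to 577 between both knockdowns, and 0 to 2, 0 to 2 and 1 members in the last 3. Uncalled values turned sign when 1 library was left out. With aspartate these were *Tgfb1* (-0.070 to 0.013), *Tgfb2* (-0.62 to 0.014), *Tgfbr1* (-0.069 to 0.13), *Tgfbr2* (-0.092 to 0.060), *Tgfbr3* (-0.31 to 0.25), *Smad2* (-0.0028 to 0.070) and *Smad4* (-0.067 to 0.14). With *Grin2d* silencing they were *Tgfbr1* (-0.16 to 0.042), *Smad3* (-0.19 to 0.011) and *Smad4* (-0.097 to 0.0081). With *Dhps* silencing they were *Tgfb1* (-0.15 to 0.11), *Smad2* (-0.098 to 0.0052) and *Grin2d* (-0.26 to 0.087), and between both knockdowns *Tgfb2* (-0.12 to 0.33), *Tgfbr2* (-0.010 to 0.085) and *Smad4* (-0.10 to 0.022).

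With the replicate block, 2, 611, 2150 and 1468 genes were called in the 4 comparisons (aspartate, *Grin2d*, *Dhps*, both knockdowns) and 0, 2, 2 and 2 members, which added *Tgfbr3*, then *Tgfb2* and *Smad3*, then *Smad3*. With the block and only the groups compared, 64, 363, 2026 and 1527 genes and 0, 1, 2 and 2 members were called. The block turned the aspartate values of *Tgfb1* (0.055) and *Tgfbr3* (0.037, or 0.046 with only the groups compared) and the *Tgfbr2* difference between both knockdowns (-0.011 and -0.0095). For the knockdown comparisons the numbers did not meet the rule for pairing, r over 0.1 in every pair. With *Dhps* silencing r was 0.258, 0.195, 0.201 and 0.0404 for replicates 1 to 4, and only the last was below that limit. Over all alternatives, the block included, the counts called in the lists of the BMP and activin branch, Smad regulators, latency and activation, and target genes were 0 to 2, 0 to 2, 1 to 4 and 1 to 4 with *Grin2d* silencing and 1 to 6, 4 to 8, 2 to 8 and 2 to 9 with *Dhps* silencing, with the highest counts under the block.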
